A study of Homo sapiens with 9 samples.

Results

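The regions described here were the 5 kb upstream of 1168 transcription start sites whose wider upstream neighbourhood was quiet, out of 7936 start-site identifiers present in the files of all 9 libraries. Members were chosen on the mean of the 3 mock libraries. A start was kept when its downstream level, the mean signal per 200-bp bin over the first 5 kb of the gene side, was 2 or more. Its signal from -50000 to -10000 also had to stay under 10% of that level, and its signal from 15 to 50 kb downstream had to reach 10% of it. Of the 2973 starts that met the first condition, 1382 had an active far upstream region and 423 had a quiet one but little signal from 15 to 50 kb. The downstream, far upstream and 15 to 50 kb levels of the mock libraries therefore chose the members and are given only as descriptions. The upstream level, the mean signal per bin from -5000 to -200, was not used in the choice.

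The study used BrU-seq, in which cells take up bromouridine (BrU) during a short pulse and an antibody against the label then enriches newly made RNA for sequencing. All cells were RPE1 iCas9 p53/puro-dKO, a human line labelled as retina pigment epithelium, so that the p53/puro double knockout was shared by every group. The lines compared were STK19-KO (KO), STK19-KO carrying STK19-TY (rescue), and WT. Each line was used mock-treated, 3 h after irradiation and 16 h after irradiation with UV-C at 12 J/m2. BrU was given at 2 mM for 30 min, starting 2.5 h or 15.5 h after irradiation. Each line and condition had 1 library, and the sources used here give neither the number of clones nor the promoter behind STK19-TY. The files do not pair the identifiers with gene names, and 0 of the 1168 members matched the reference table, so neither STK19 nor markers of the cell type could be checked, and no sequence could be read for a member.

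Mammalian promoters are commonly transcribed in both directions. The polymerase that leaves away from the gene makes short upstream antisense transcripts, also called promoter upstream transcripts, which usually end early and are degraded fast, so that methods that capture newly made RNA show them better than steady-state RNA does. UV-C makes bulky DNA lesions that stop elongating RNA polymerase II, and transcription-coupled repair, in which STK19 takes part, removes such lesions from transcribed strands. No source used here says whether the deposited coverage kept the strands apart. Upstream signal is therefore described without strand, and divergent transcripts cannot be told apart from sense RNA that begins farther upstream.

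The libraries differed far more in depth than in total. Total deposited signal ran between 1.86e+07 and 2.13e+07, but relative depth, read from the smallest step of each scale (4.88 for KO at 3 h, the coarsest, and 0.373 for WT at 16 h, the finest), spanned 13.1-fold. The share of members with no upstream signal was highest, at 34.8%, in the shallowest library (KO at 3 h) and lowest, at 3.00%, in the deepest (WT at 16 h). A member's upstream level of 3 steps, the limit that a count of 0 allows, was 0.586 in KO at 3 h and 0.0448 in WT at 16 h. Zeros and medians over single members are limited by this depth, whereas sums over the 1168 members rested on 20470 to 156439 steps.

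Averaged over the members, the upstream flank held a peak of its own, separate from that of the gene. The profile had its upstream maximum in the bin at -600 in all 9 libraries, with a height between 5.52 in rescue mock and 14.98 in KO at 16 h. Between the peaks lay a trough in the bin at -200 or 0, at 56.7% to 67.4% of the upstream peak. The downstream maximum lay between 600 and 1200. The upstream peak reached 45.6% of the downstream peak in KO at 16 h, the highest value, and 25.1% in WT at 3 h, the lowest. Beyond the peak the signal was first below 50% of its height between -1200 and -1600. The authors' deposited table of averages over 1473 genes of at least 25 kb, and those over 787 and 308 longer genes, placed the upstream peak at -600 in every library too. They share the reads of these libraries and are not a separate measurement.

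**Figure D1:**
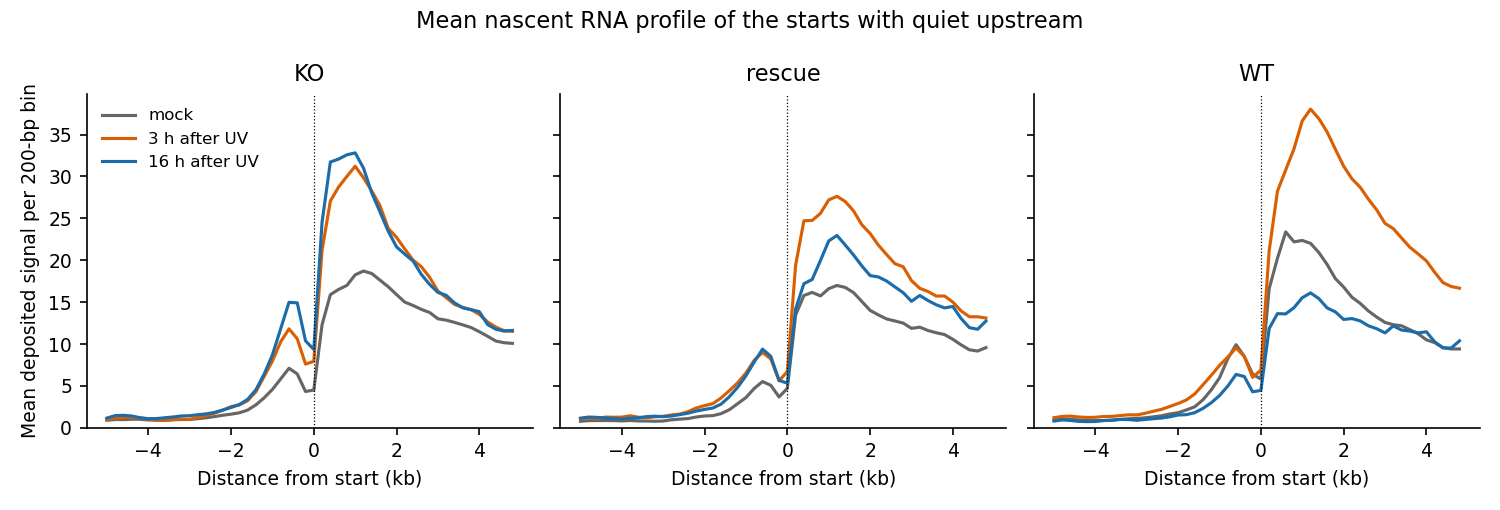
Mean signal per 200-bp bin (deposited scale, y axis) over the 1168 members by distance from the start in kb (x axis), with KO, rescue and WT in panels from left to right and mock, 3 h and 16 h as lines. A smaller upstream peak, highest in the bin at -600, stood apart from the downstream peak in all 9 libraries, and it was tallest, at 14.98, in KO at 16 h.

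The upstream signal was concentrated next to the start. The first kb upstream held at most 59.7% of it (KO at 16 h) and at least 46.9% (WT at 3 h). In the mock libraries the mean signal in that window was 5.66 in KO, 4.52 in rescue and 7.81 in WT, and it was 2.37, 1.93 and 2.86 in the window from -2 to -1 kb. Over 10 to 5 kb upstream the mean was between 0.632 and 0.928, or 3.25% to 5.34% of the downstream level. For single members, the highest upstream 1-kb window was the one next to the start in 961 of the 1158 with any signal on the mean of the 6 UV libraries, and in 903 of 1122 on the mean of the 3 mock libraries. Starts with an active far upstream region were flatter: their first kb held 22.3% to 34.5% of the upstream signal, which was 43.5% to 59.5% of the downstream signal. That group was set apart by signal next to this window, so the contrast is a description. The members and that group did not overlap in either value in any library. The 423 starts with quiet upstream but little signal from 15 to 50 kb also lay below the members in every library. Their first kb held 27.5% to 44.0% of the upstream signal, which was 7.89% to 12.1% of the downstream signal. Concentration next to the start was thus weaker in these 423 starts, but not absent. Within the 5 kb their mean signal was highest in the first kb upstream in every library. In WT mock it was 9.93 there against 4.97 from -2 to -1 kb.

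A minority of the members carried most of the upstream signal. The 117 members with the highest upstream level, ranked separately on each mean, held 58.1% of it over the UV libraries and 56.3% over the mock libraries. The median upstream level was 0.975 on the mean of the UV libraries and 0.745 on that of the mock libraries. As a percentage of a member's own downstream level, the upstream level had a median of 8.21% in UV and 8.60% in mock, with quartiles of 2.95% and 23.5% in UV and 2.99% and 25.4% in mock. It reached 50% in 123 members in UV and 134 in mock, and 100% in 41 and 46. At the other end, 10 members in UV and 46 in mock had no upstream signal at all.

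Upstream and downstream levels were only loosely tied. Across the 1168 members, Spearman's rho between them was 0.40 on the UV mean and 0.36 on the mock mean. Both levels of a point come from the same libraries, and members are not replicates. The pooled percentage was smaller only in the group of most active starts. For this, members were split by the mean downstream level of all libraries. The 389 with the highest level had pooled percentages between 11.3% and 16.3%. The 389 in the middle had 17.9% to 29.2%, much like the 18.1% to 29.3% of the 390 with the lowest level. Across members, Spearman's rho between the percentage and the downstream level was -0.14 on the UV mean and -0.15 on the mock mean. The split and the percentage share the downstream signal, so the difference is a description. By contrast, the order of members by upstream level was alike from library to library, with rho between 0.74 for WT at 16 h with KO at 3 h and 0.93 for rescue with WT at 16 h.

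**Figure D2:**
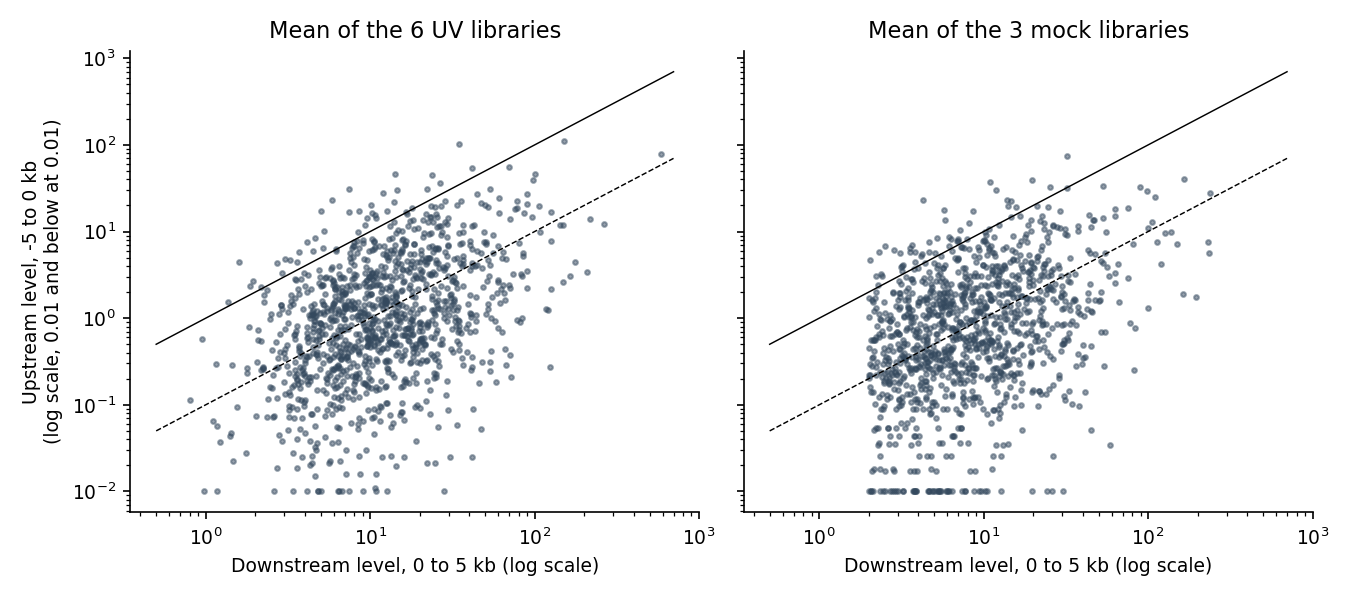
Upstream level (y axis) against downstream level (x axis), both as mean deposited signal per bin on log axes, for the members on the mean of the 6 UV libraries (left) and of the 3 mock libraries (right). The solid line marks equality and the dashed line 10%: 538 members in UV and 546 in mock were at or above 10%, and 41 and 46 were at or above equality.

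At each edge of the rule, 1 start on either side shows what the threshold parted. Just inside and just outside the downstream threshold (2.00356 and 1.99902), the mock upstream levels were 0.224 and 1.98. Just inside and outside the far upstream threshold (9.98% and 10.02%) they were 0.188 and 1.86, and at the threshold for 15 to 50 kb (10.0% and 9.97%) they were 0.435 and 0.538. Overlapping profiles placed another identifier between 1 and 10 kb upstream of 38 members, or 3.25%. In 33 of those the neighbour pointed the other way, at 2.0 to 9.2 kb, and in 17 it lay within the 5 kb. Only identifiers in all 9 files could be found in this way, and neighbours closer than 1 kb were not counted.

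The central comparison was the upstream share, the summed upstream signal as a percentage of the summed downstream signal, which does not depend on how each library was scaled. In KO the share was 16.2% in mock, 17.4% at 3 h and 20.2% at 16 h. In rescue it was 14.3%, 15.9% and 18.1%, and in WT 18.6%, 13.2% and 16.4%. Relative to mock, the share at 3 h was thus 1.17 percentage points higher in KO and 1.59 higher in rescue, and in WT the change was -5.41. At 16 h the changes were 3.95 in KO, 3.80 in rescue and -2.20 in WT. WT was the highest of the mock libraries and the lowest at both times after UV. With 1 library each, and with mock downstream signal part of the rule, no test of this difference is given. Over the lines the share averaged 16.4% ± 2.14 in mock, 15.5% ± 2.13 at 3 h and 18.2% ± 1.89 at 16 h (SD, n = 3 lines each), ranges that overlap. The step that all lines had in common was from 3 h to 16 h, where the share was 2.78 points higher in KO, 2.21 in rescue and 3.21 in WT. In the 423 starts with quiet upstream but little signal from 15 to 50 kb, the changes from mock had the members' directions. For mock, 3 h and 16 h their share was 8.52%, 11.4% and 11.9% in KO and 7.89%, 12.1% and 9.73% in rescue. In WT it was 11.1%, 10.0% and 9.69%. In the starts with an active far upstream region the share was below mock in every line at both times.

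**Figure D3:**
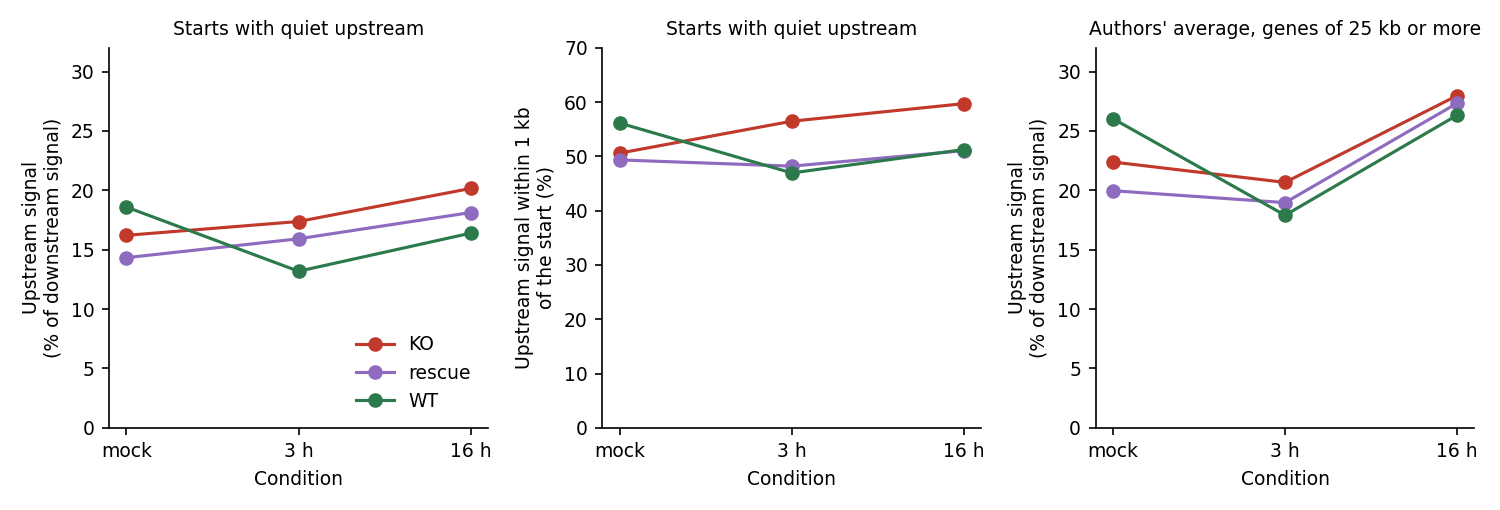
Summed upstream signal as a percentage of summed downstream signal over the members (left), percentage of the upstream signal that lay within 1 kb of the start (middle), and the upstream percentage in the authors' averages over genes of at least 25 kb (right), for KO, rescue and WT at mock, 3 h and 16 h. In the left panel WT lay highest in mock at 18.6% and lowest at 3 h at 13.2%, and every line was higher at 16 h than at 3 h.

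The direction at 3 h changed in KO and rescue, but not in WT, when the members with the most upstream signal were left out. The 117 highest were ranked on the mean of all 9 libraries, the 3 h ones included, so leaving them out is a description. Without them, the change from mock was -1.58 points in KO, -0.75 in rescue and -4.07 in WT at 3 h, and 2.04, 3.21 and -0.44 at 16 h. The median percentage over members behaved alike: 5.50% at 3 h against 8.85% in mock in KO, 6.82% against 7.14% in rescue, and 5.82% against 9.70% in WT. At 16 h the medians were 10.6% in KO, 10.4% in rescue and 8.91% in WT. Among the members with a downstream level of 20 or more, the median changed by -0.25 points in KO, 0.60 in rescue and -2.91 in WT at 3 h, and by 2.44, 3.39 and 1.34 at 16 h. WT had the largest drop at 3 h in each of these versions. The authors' deposited table for genes of at least 25 kb, to which the rule used here was not applied, gave 20.7% at 3 h and 28.0% at 16 h in KO, against 22.4% in mock. The same table gave 19.0% and 27.3% in rescue, against 19.96% in mock, and 17.9% and 26.3% in WT, against 26.0% in mock.

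Both sides of the start were higher at 3 h than in mock, and in WT the gene side was the more so. Mean upstream level was 3.41 at 3 h against 2.78 in mock in WT, a ratio of 1.22, whereas the downstream level was 25.8 against 14.98, a ratio of 1.73. In KO the ratios were 1.53 upstream and 1.43 downstream, from 3.42 against 2.24 and 19.7 against 13.8. In rescue they were 1.70 upstream and 1.53 downstream, from 3.11 against 1.83 and 19.5 against 12.8. At 16 h the mean upstream level was 1.82 times mock in KO at 4.08, 1.61 times in rescue at 2.95, and 0.718 times in WT at 2.00. Downstream ratios at 16 h were 1.46, 1.27 and 0.815. These levels depend on the authors' scaling to a common total. After trimmed-mean scaling on the starts themselves, with factors between 0.732 and 1.37, the upstream ratios were 1.24 in KO, 1.37 in rescue and 0.884 in WT at 3 h, where WT changed direction, and 1.13, 1.03 and 0.796 at 16 h. The downstream ratios were then 1.16, 1.24 and 1.25 at 3 h and 0.905, 0.811 and 0.903 at 16 h, where KO and rescue changed direction.

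Within the flank, the lines differed most in the window next to the start. At 3 h this window was 1.71 times mock in KO, 1.66 times in rescue and 1.02 times in WT, while the window from -2 to -1 kb was 1.60, 1.97 and 1.51 times mock. On the gene side, WT at 3 h was 1.36 times mock in the first kb and 1.92 times in the third. KO was highest next to the start and lower farther out on both sides, with 1.74 in the first kb downstream and 1.16 in the fifth. Upstream its lowest ratio was 1.04, in the window from -4 to -3 kb, and the farthest window had 1.18. At 16 h KO again had its highest value, 2.15 times mock, in the first kb upstream, against 1.67 in rescue and 0.66 in WT. In WT at 16 h the ratios were lowest around the start and reached 1.04 in the fifth kb downstream. Each value is a ratio of 2 libraries, with no replicate check. With the first kb left out (-5000 to -1200), the change in the upstream share at 3 h was -0.56 points in KO, 1.23 in rescue and -1.45 in WT. At 16 h it was 0.14 points in KO, 2.02 in rescue and -0.21 in WT.

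**Figure D4:**
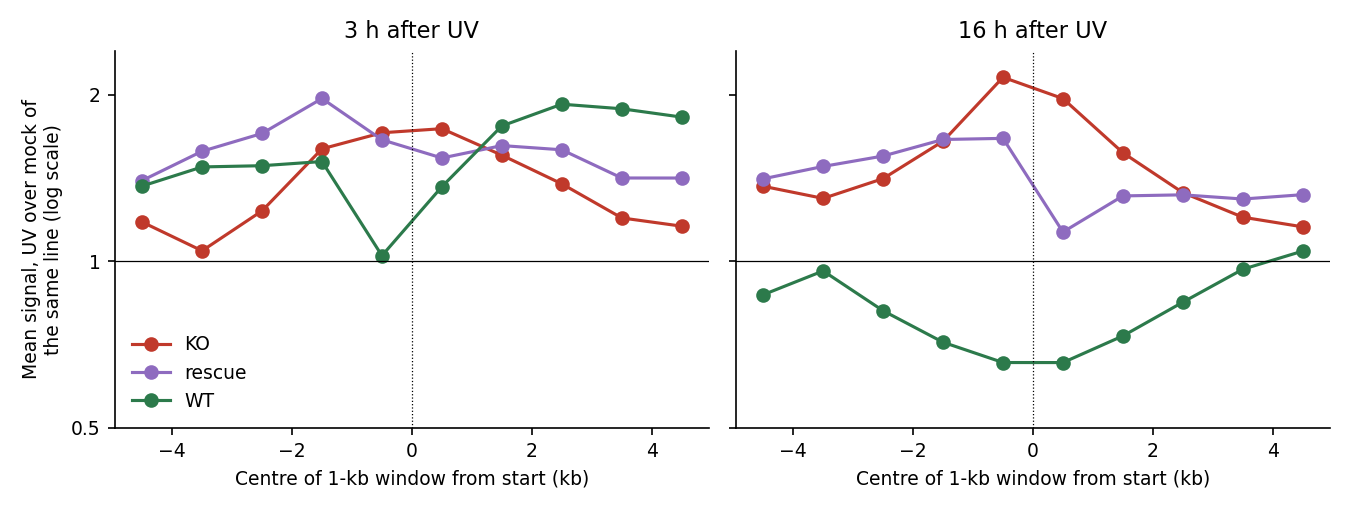
Ratio of mean signal after UV to mock (log y axis) for each 1-kb window from -5 to 5 kb (x axis) over the members, at 3 h (left) and 16 h (right), for KO, rescue and WT. In the window next to the start on the upstream side, KO and rescue lay at 1.71 and 1.66 and WT at 1.02 at 3 h, and at 2.15, 1.67 and 0.66 at 16 h.

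Single starts were tested with limma on log2(level + 0.5) over all identifiers with a mean upstream level of 1 or more, with Benjamini-Hochberg adjustment over all 2244 of them and line and condition as terms. Of the members, 559 passed this filter. It took the mean over all 9 libraries, so some members reached it only through the condition where they were high. How many of the members called did so was not counted, and the counts include them. At 3 h against mock, 60 of them passed an adjusted p of 0.05, 50 higher and 10 lower, or 10.7%. The background over all identifiers tested was 12.9% (7.04% higher and 5.84% lower), so the share called in both directions together was near the background. The split was less even in the members, with 50 higher and 10 lower against 158 higher and 131 lower over all identifiers tested. The rule asked for low mock signal beyond the flank in members only. Contrasts with all identifiers in the change from mock are therefore descriptions. The median log2 change was 0.19 in the members and 0.08 in all identifiers tested. At 16 h against mock, 77 passed, 57 higher and 20 lower, or 13.8% against a background of 13.6% (8.82% higher and 4.77% lower). The medians were 0.43 in the members and 0.35 in all. In each, 3 lines, 2 of them from the same knockout, stand in for repeated cultures. The comparisons at 3 h and 16 h share the mock libraries.

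The counts changed with the lines used, over all identifiers as over the members. Without WT, 170 members passed at 16 h, 152 of them higher, among 607 of all 2244 identifiers. Without KO 6 passed, all lower, among 60 of all, and without rescue 10 passed, 2 of them higher, among 54 of all. At 3 h, leaving out KO gave 22 members among 126 of all, and leaving out rescue gave 9 among 62. Trimmed-mean scaling left 74 members called at 3 h and 77 at 16 h. With that scaling, which centres the starts and moved the median of all identifiers to -0.21 at 3 h and 0.01 at 16 h, the split was 38 higher and 36 lower at 3 h and 39 higher and 38 lower at 16 h. Line by line, the median log2 change of the 559 at 16 h was 0.82 in KO and 0.76 in rescue, against 0.57 and 0.61 over all 2244, and -0.34 in WT against -0.23 over all. At 3 h it was 0.23 in KO, 0.36 in rescue and 0.06 in WT, against 0.10, 0.18 and -0.00431 over all.

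The 2 members with the largest rise at 3 h had higher signal on both sides of the start. The upstream level of uc002eel.4 was 11.5 in KO, 5.86 in rescue and 19.0 in WT at 3 h, against 0.259, 0.490 and 2.44 in mock. All 3 libraries at 3 h lay above all 3 mock libraries. The log2 change was 3.13 (SE 0.45, adjusted p = 3.21e-09 by limma), and at 16 h the levels were 2.94, 1.46 and 0.597. Its downstream level moved as well, to 10.2 in KO, 8.78 in rescue and 43.4 in WT at 3 h, against 2.10, 2.34 and 6.44 in mock. For uc002nup.4 the upstream level was 10.2, 9.96 and 11.0 at 3 h in KO, rescue and WT, against 0.673, 0.435 and 1.84 in mock, again with no overlap. Downstream it had 21.7, 18.5 and 45.2 at 3 h, against 6.29, 3.92 and 10.1 in mock. It reached the filter only through the libraries after UV, where it was high, so its log2 change of 2.99 is a description.

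Of the 2 members with the lowest log2 change among those called, one had higher and the other lower signal on the gene side at 3 h. The upstream level of uc001wsc.4 was 0.781 in KO, 0 in rescue and 0.334 in WT at 3 h, against 2.04, 1.36 and 3.46 in mock, with no overlap. Its downstream level was 17.6, 17.4 and 25.5 at 3 h against 8.33, 4.03 and 9.47 in mock, higher in every line. The log2 upstream change was -1.71, and -0.37 with the first kb left out. For uc002sie.4 the upstream level was 0.586, 0.195 and 0.426 at 3 h in KO, rescue and WT, against 3.26, 3.37 and 2.71 in mock. The values at 3 h all lay below those of mock, and the log2 change was -2.02. Both of these members reached the filter only through the mock libraries, where they were high, so their changes are descriptions. The downstream level of uc002sie.4 was 19.7, 15.7 and 8.15 at 3 h against 39.8, 40.8 and 16.7 in mock. Its far upstream level, from -50000 to -10000, was lower too, at 1.38, 1.07 and 0.423 at 3 h against 3.20, 2.98 and 2.57 in mock. Signal beyond the flank thus moved with it. The rule used the mean of the mock libraries, and in WT mock alone this level was above 10% of the downstream level. In WT at 16 h it was 6.11, with 13.5 downstream. Counts were low on the UV side: the 0 of uc001wsc.4 in rescue allows a level of up to 0.293, and 0.586 in KO is 3 steps. Profile overlaps found no other listed start between 1 and 10 kb upstream of any of these starts, and closer ones were not searched.

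The upstream level relative to downstream was tested between the times after UV, which the rule did not use. The filter did use them, so the members called can include some that passed it only through the time when they were high. At 16 h against 3 h the log2 ratio was higher in 37 members and lower in 4 by limma, over 1955 identifiers tested. The 41 called were 7.33% of the 559, against a background of 8.39% (6.39% higher and 1.99% lower). The median log2 change was 0.33 in the members and 0.22 in all identifiers tested. By line, the median change in the members was 0.32 in KO, 0.22 in rescue and 0.33 in WT, and 365, 328 and 371 of the 559 were higher at 16 h. Over all 1955 the medians were 0.20, 0.14 and 0.28. The fit drew its error from all 9 libraries, mock included. Fitted on only the 6 libraries compared, limma called 0 members (117 at an unadjusted p under 0.05) and 1 of all 1955 identifiers, and with no filter on low values it called 0 members (257 at an unadjusted p under 0.05). The count called was 8 without WT, 43 without KO and 0 without rescue (78 at an unadjusted p under 0.05 by limma). Against mock, as a description, the median log2 ratio of the members changed by -0.27 at 3 h and 0.10 at 16 h.

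Few starts separated the lines over all conditions. In KO against WT, 2 of the 559 members passed for the upstream level by limma, both higher in KO, with a background of 0.713%, and 60 had an unadjusted p under 0.05. Both fall outside the rule for naming starts and were singled out after their values were seen. For mock, 3 h and 16 h, the first had 42.1, 104.2 and 18.9 in KO against 20.8, 24.9 and 5.20 in WT, a log2 difference of 1.61 (SE 0.40, adjusted p = 0.0163 by limma). In rescue it had 35.6, 103.9 and 15.2, closer to KO than to WT at each time. The second had 18.2, 25.2 and 19.1 in KO and 4.76, 8.63 and 1.88 in WT, a difference of 2.12 (SE 0.41, adjusted p = 0.000131 by limma), with 14.9, 32.9 and 12.8 in rescue. In both, the upstream level exceeded the downstream level in each KO and rescue library. In WT it did so in every library for the second start, and in mock and at 3 h for the first. The downstream level was also higher in KO than in WT. For mock, 3 h and 16 h it was 37.3, 49.6 and 11.2 in KO against 9.58, 17.0 and 9.48 in WT for the first. For the second it was 8.51, 8.59 and 11.2 against 4.66, 4.26 and 1.06. No member passed without the mock libraries, without the 3 h libraries, without the condition block or with no filter on low values (44, 22, 22 and 96 at an unadjusted p under 0.05 by limma). With trimmed-mean scaling 13 members passed, among 46 of all 2244, and without the 16 h libraries 38 did, 11 higher and 27 lower, among 154 of all.

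No member passed for the ratio of upstream to downstream signal between lines. In KO against WT limma called 0 of 559, with a background of 0.0512% and 49 members at an unadjusted p under 0.05. The median log2 difference was 0.09 in the members and 0.06 in all. In rescue against KO it called 0 with a background of 0%, and 31 members had an unadjusted p under 0.05. The median there was -0.08. A separate KO response of the ratio at 16 h, fitted with 2 residual degrees of freedom, also called 0 with a background of 0%. There 44 members had an unadjusted p under 0.05, and the median was 0.24 in the members and 0.09 in all. With 1 library per line and condition the fit can call only large and even differences, and these counts do not show that the lines were alike.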

How the data were processed

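The data were 9 BrU-seq libraries, 1 for each of 3 lines and 3 conditions, grouped by sample title. One label has the pulse begin at 3 h and 16 h and another has it end then; a start at 2.5 h and 15.5 h was taken. The submitters' processing notes list HOMER 4.8.2, STAR 2.7.7a, FastQC 0.11.9, R 4.0.5 and Trim Galore 0.6.5 without saying what each did, and the genome builds hg38 and GRCh38.

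The deposited signal is coverage in 200-bp bins, in 1001 columns within 100 kb of each start, per the file headers. Within each library all values were multiples of 1 smallest step (tolerance 0.02 of it), and totals were alike, so the authors were taken to have scaled every library to about the same total. Coverage is not a read count, so no count model was fitted. No spike-in is named in the sources used here. Each bin was placed by its header label, and whether that label is a bin's start or centre is not given.

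Members and lists were chosen with earlier results of these data known. Levels are means per bin, and the bin at -10000 counted as far upstream. The upstream share is a ratio of sums over the 1168 members. Tests were limma 3.58.1 in R 4.3.3 (trend, empirical Bayes) on log2(level + 0.5), or on the log2 ratio of upstream to downstream with 0.5 added to each, so fold changes of low starts are understated. Identifiers needed a mean upstream level of 1 or more over the 9 libraries (for ratios also downstream). Line and condition were terms, leaving 4 residual degrees of freedom. P-values against mock and between lines rest on the same spread, the one left after line and condition are taken out. It reflects how unevenly the lines changed between conditions, not the spread between repeated cultures. Starts named in the text are the 2 highest and 2 lowest by log2 change at 3 h among members past the test and moved the same way in all 3 lines. Neighbouring starts were found by shifting pairs of profiles against each other within 10 kb, with a correlation of at least 0.92 in both WT at 16 h and KO mock. Shifts under 1 kb were left out, so a neighbour as close as the upstream peak could not be found. Alternatives were the pseudocount, the filter, the upstream window, scaling, blocks, each line or condition left out, and the thresholds of the rule. The authors' averaged tables, deposited as signal over 308, 787 and 1473 genes, were used only for percentages within a table.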

Additional observations from a re-analysis of the deposited data

Results flagged for a closer look

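The pooled upstream share moved one way in KO and rescue and the other way in WT at both times after UV. At 3 h against mock the change was 1.17 percentage points in KO and 1.59 in rescue, against -5.41 in WT. At 16 h it was 3.95 in KO and 3.80 in rescue, against -2.20 in WT. With 1 library in each cell these differences between lines were not tested. The 117 members of highest upstream signal were ranked on the mean of all 9 libraries, the 3 h ones included. Without them the changes were -1.58 in KO, -0.75 in rescue and -4.07 in WT at 3 h, all in the same direction. At 16 h the changes were then 2.04 in KO, 3.21 in rescue and -0.44 in WT. From -5000 to -1200 they were -0.56 in KO, 1.23 in rescue and -1.45 in WT at 3 h, where KO turned. At 16 h they were 0.14, 2.02 and -0.21 in that window. The median over members with a downstream level of 20 or more changed by -0.25 in KO, 0.60 in rescue and -2.91 in WT at 3 h, where KO turned. At 16 h that median changed by 2.44, 3.39 and 1.34, where WT turned. Relative depth at 3 h was 1 in KO, 2.00 in rescue and 6.42 in WT, and its part in the result was not tested.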

How the results depend on the processing

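No paired analysis was possible because the labels give no replicate numbers, beyond the line, which was a block in every fit against mock, and the condition, which was a block between lines. The mean upstream share over the lines (16.4% in mock, 15.5% at 3 h, 18.2% at 16 h) changed most with how members were weighted. In mock, at 3 h and at 16 h it was 9.56%, 7.43% and 11.2% without the 117 highest members, 8.56%, 6.05% and 9.99% as the median over members, 9.76%, 9.50% and 10.4% from -5000 to -1200, and 5.34%, 4.48% and 7.73% as the median over members with a downstream level of 20 or more, a setting chosen after seeing the data. Leaving out each line gave 15.3% to 17.4% in mock, 14.5% to 16.6% at 3 h and 17.3% to 19.1% at 16 h. Other thresholds of the rule, and leaving out members with a neighbouring start (chosen after seeing the data), moved it by less than the spread between lines.

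Counts of members called varied more. For the upstream level at 3 h (60 called), there were 21 with no filter, 119 in only the 6 libraries compared, 38 without the line block, and 9 to 72 with a line left out. At 16 h (77 called), there were 26 with no filter, 44 with a filter at 3, 48 from -5000 to -1200, 50 without the line block and 6 to 170 with a line left out. For KO against WT (2 called), there were 0 with no filter, 6 with a filter at 3, 13 with trimmed-mean scaling, 1 in only the 6 libraries, 1 without the KO 3 h library, 0 without the condition block and 0 to 38 with a condition left out. In limma, the counts of 0 with no filter, without the block, without mock and without 3 h stood beside 96, 22, 44 and 22 members at an unadjusted p under 0.05. For the ratio at 16 h against 3 h (41 called), there were 13 with a pseudocount of 0.1, 62 with 2, 0 with no filter, 22 with a filter at 3, 21 from -5000 to -1200, 0 in only the 6 libraries and 0 to 43 with a line left out. Those counts of 0 stood beside 257, 117 and, without rescue, 78 members at an unadjusted p under 0.05 in limma. For the ratio in KO against WT (0 called), there were 4 with a pseudocount of 2 and 0 to 1 with a condition left out. The cause of these differences was not tested. For the ratio in rescue against KO and for the separate KO response, the alternatives run gave 0 calls.

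Depth limits single members: in KO at 3 h 406 of 1168 had no upstream signal, which allows a level of up to 0.586 each. This limit covers counting error only.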
